A study of Mus musculus with 10 samples.

Results

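Receptor tyrosine kinases are cell surface proteins that bind a growth factor outside the cell, pair up and phosphorylate each other inside it. The phosphorylated tails recruit adaptors that switch on the RAS-ERK and PI3K-AKT pathways, and through them growth, survival and migration. Several of these receptors, among them ERBB2, IGF1R, MET and the PDGF receptors, have been studied in medulloblastoma, a childhood tumour of the cerebellum. The receptors described here are EGFR, ERBB2, MET, PDGFRA, PDGFRB, IGF1R, FGFR1, AXL, EPHA2 and KIT. They were chosen by name, and each had a row in the count table, so they make up 10 of its 33538 human genes. After the filter on low counts 9 of the 10 receptors were among the 16013 genes tested, and KIT was not.

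The tumours were grafts of DAOY, an established human medulloblastoma line, grown in the flank of nude mice, which lack mature T cells and accept human grafts. The 2 oil diets were a fish oil (n = 4 libraries), taken to be the arm that the series describes as a combination of DHA and EPA, and a DHA oil (n = 3), and the control mice ate ordinary chow (n = 3). DHA and EPA, docosahexaenoic and eicosapentaenoic acid, are long-chain omega-3 fatty acids that are built into cell membranes. All samples carry the label female and 30 days of treatment, the age of the mice is not in the labels, and no label says which mouse a library came from. The p-values therefore reflect only the variation among these samples, which may be technical. All groups share 1 line in 1 graft site, and the host mice supply the vessels, stroma and innate immune cells of the grafts.

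Polyadenylated RNA of whole tumours was sequenced, and each value is a count of reads per gene, given as CPM, which is the count scaled to the TMM-adjusted total of the library. Library totals ran from 6187116 to 10035702 reads. Counts of the 9 receptors tested ranged from 103 to 6488 reads per library, so that counting error alone amounted to between 1.39% (FGFR1) and 7.95% (PDGFRA) of the mean count. Fish oil replicates 4 and 2 stood apart from the other libraries on the first principal component of all genes (scores of 52.9 and 21.4, against -19.1 to 1.71), which held 26.4% of the variance. Where leaving these libraries out moves a call or a value described here, the value without them is given. In bulk tumours fewer cells of a type and less RNA per cell cannot be told apart, and any removal of mouse reads is not given in the sources used here. Gene lengths of the human annotation were not used here, so CPM values are compared between diets for 1 gene and not between genes.

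No receptor passed the test for a difference between diets. edgeR's quasi-likelihood test called 0 of 9 receptors in fish oil against control, where it called 0.00624% of all genes tested, 0 of 9 in DHA oil against control and 0 of 9 in fish oil against DHA oil, where it called 0% of all genes in both cases. It also called 0 of 9 for the mean of both oils against control (0.131% of all genes) and 0 of 9 for any difference among the 3 diets (0.0312% of all genes). DESeq2 and limma-voom also called 0 of 9 in each comparison. At an unadjusted p under 0.05 the counts were 0 of 9 for fish oil against control (3.48% of all genes), 0 of 9 for DHA oil against control (2.74%), 0 of 9 for fish oil against DHA oil (4.84%), 0 of 9 for any diet difference (3.39%) and 2 of 9, PDGFRA and PDGFRB, for both oils against control (2.62%). These counts varied with the processing. For DHA oil against control limma-voom gave 3 of 9, PDGFRA, PDGFRB and AXL, beside 1002 of all 16013 genes tested. The highest count for fish oil against control was 2 of 9, without fish oil replicate 2, beside 489 of the 15850 genes tested in that fit. No receptor separated fish oil from control without overlap (3.74% of all genes), DHA oil from control (10.6%), fish oil from DHA oil (4.95%) or both oils from control (1.12%).

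The intervals show how large a difference could have been missed. Against control, log2 fold changes of the 9 receptors ran from -0.39 (MET) to 0.38 (PDGFRA) in fish oil, with a median of -0.13, beside a median of 0.01 over all genes tested. In DHA oil they ran from -0.40 (MET) to 0.37 (PDGFRA), with a median of -0.07, beside 0.00 over all genes. Both comparisons use the same control libraries, so their values are not independent of each other. Between the oils they ran from -0.13 (IGF1R) to 0.17 (AXL). Leaving MET aside, the 95% intervals of the other 8 receptors reached at most a 1.70-fold difference with fish oil and 1.74-fold with DHA oil relative to control, and 1.49-fold between the oils. For MET they reached 2.19-fold, 2.28-fold and 1.68-fold in the same comparisons.

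**Figure D1:**
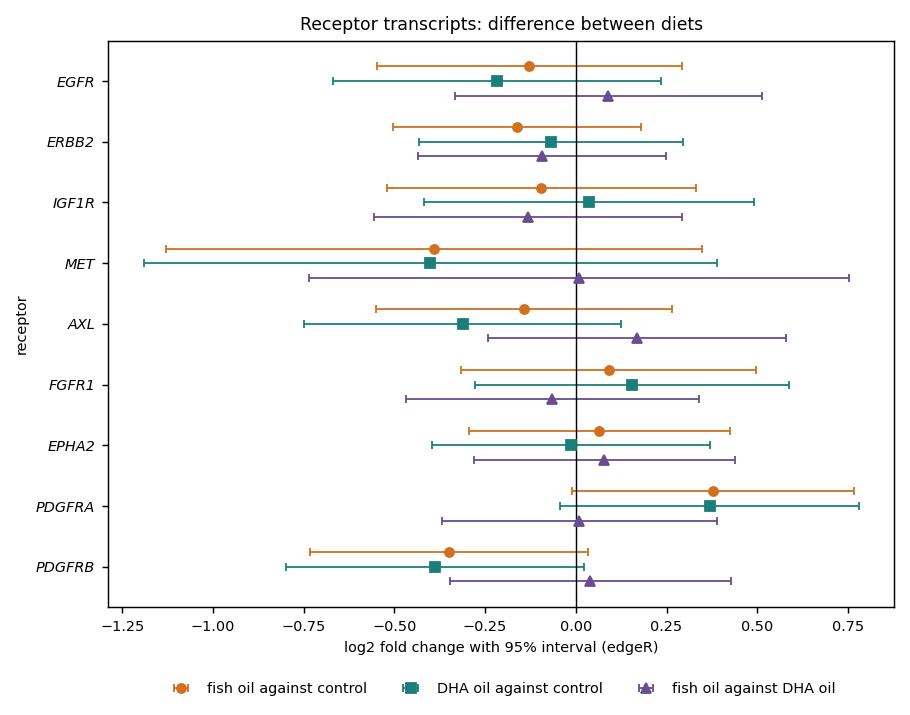
Log2 fold change (x axis) of the 9 receptors tested (rows), with 95% intervals from edgeR, for fish oil against control (orange circles), DHA oil against control (green squares) and fish oil against DHA oil (purple triangles). Every interval includes 0, and those of MET are the widest, reaching -1.13 in fish oil and -1.19 in DHA oil.

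EGFR (ENSG00000146648), the receptor of epidermal growth factor and related ligands, stood at 269, 367, 300.3 and 206 CPM in fish oil replicates 1 to 4, at 268, 272 and 265 CPM in the DHA oil libraries and at 284, 233 and 420.2 CPM in the controls. The DHA oil libraries lay close together, while the fish oil and control libraries spread widely on both sides of them. The coefficient of variation in DHA oil was 1.32% (n = 3), below the 2.02% that counting error alone gives at the mean count of EGFR. Closeness beyond counting error in 3 libraries cannot be read as a trait of that diet. Mean levels were 286 ± 66.9 CPM for the fish oil tumours (SD, n = 4), 269 ± 3.54 CPM for the DHA oil tumours (SD, n = 3) and 312 ± 96.9 CPM for the controls (SD, n = 3). In order of mean level control came first, then fish oil and then DHA oil. Control and fish oil differed by less than the SD of either. Fish oil and DHA oil differed by less than the SD in fish oil, though by more than the small SD in DHA oil. The log2 fold change of both oils against control was -0.17 (95% interval -0.55 to 0.21), and that of fish oil against DHA oil was 0.09 (-0.33 to 0.51). Without control replicate 3 the first of these was 0.10, on the other side of 0.

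ERBB2 (ENSG00000141736) binds no known ligand of its own and acts as the preferred partner of the other EGFR family members. Its levels were 90.0, 67.2, 90.3 and 63.4 CPM in fish oil replicates 1 to 4, against 91.7, 77.2 and 79.3 CPM in DHA oil and 68.8, 99.8 and 91.8 CPM in control. All 3 groups overlapped, and fish oil replicates 2 and 4, the libraries that stood apart over all genes, held the lowest values of all 10. The means of 77.7 ± 14.4 CPM for the fish oil tumours (SD, n = 4), 82.8 ± 7.85 CPM for the DHA oil tumours (SD, n = 3) and 86.8 ± 16.1 CPM for the controls (SD, n = 3) differed by less than 1 SD. Both oils together differed from control by a log2 fold change of -0.11 (-0.42 to 0.19), and fish oil differed from DHA oil by -0.09 (-0.43 to 0.25), which became 0.12 without fish oil replicates 2 and 4. Leaving out 1 library moved the value of both oils against control between -0.26 and -0.0014.

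IGF1R (ENSG00000140443), which binds insulin-like growth factors and signals chiefly through IRS adaptors and PI3K, had 74.1, 83.0, 88.7 and 46.4 CPM in fish oil replicates 1 to 4, against 76.8, 84.5 and 78.6 CPM in DHA oil and 78.0, 58.5 and 97.6 CPM in control. Fish oil replicate 4 was the lowest library and control replicate 3 the highest, so the groups overlapped fully. Its mean was 73.1 ± 18.8 CPM for the fish oil tumours (SD, n = 4), 80.0 ± 3.99 CPM for the DHA oil tumours (SD, n = 3) and 78.0 ± 19.5 CPM for the controls (SD, n = 3). Both oils together differed from control by a log2 fold change of -0.03 (-0.42 to 0.36), and fish oil differed from DHA oil by -0.13 (-0.56 to 0.29).

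**Figure D2:**
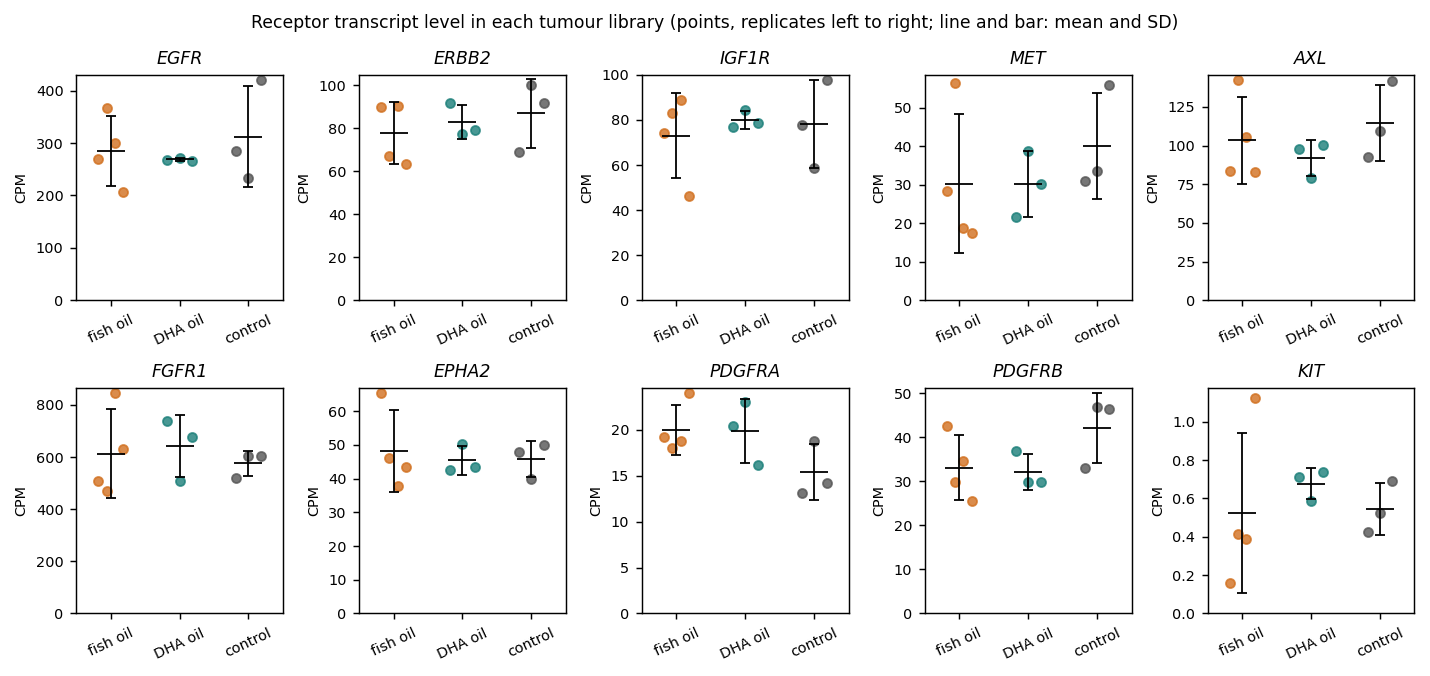
Transcript level in CPM (y axes, starting at 0) of the 10 receptors in each tumour library, by diet (x axes: fish oil, DHA oil, control). Points are libraries, and the line and bar are the mean and SD. In each panel the diets overlap, and the MET points spread from 17.6 to 56.5 CPM.

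MET (ENSG00000105976), the receptor of hepatocyte growth factor, which drives invasive growth, was the most variable of the 9 receptors tested. It stood at 28.3, 56.5, 18.9 and 17.6 CPM in fish oil replicates 1 to 4, against 21.5, 38.9 and 30.2 CPM in DHA oil and 30.9, 33.5 and 56.0 CPM in control. The highest library, fish oil replicate 2, and the lowest, fish oil replicate 4, came from the same diet and differed 3.21-fold, and these are the libraries that stood apart over all genes. Means were 30.3 ± 18.1 CPM for the fish oil tumours (SD, n = 4), 30.2 ± 8.69 CPM for the DHA oil tumours (SD, n = 3) and 40.1 ± 13.8 CPM for the controls (SD, n = 3), so that control ranked above the oils, which were alike in mean, by less than the SD in control. Relative to control the log2 fold change was -0.39 (-1.13 to 0.35) with fish oil and -0.40 (-1.19 to 0.39) with DHA oil, and between the oils, as fish oil over DHA oil, it was 0.01 (-0.73 to 0.75). These values rested on single libraries, since the fish oil value relative to control was -0.90 when fish oil replicate 2 was left out (edgeR, unadjusted p = 0.0048, adjusted p = 1.00), -0.77 when fish oil replicates 2 and 4 were, and -0.081 when control replicate 3 was, the DHA oil value was -0.086 when control replicate 3 was left out, and fish oil relative to DHA oil was -0.50 when fish oil replicate 2 was left out.

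AXL (ENSG00000167601), a receptor of the TAM family that is activated by GAS6, had 83.3, 142.6, 105 and 82.9 CPM in fish oil replicates 1 to 4, against 97.7, 78.9 and 100.3 CPM in DHA oil and 92.8, 109 and 142 CPM in control. As with EGFR and MET, the highest libraries were fish oil replicate 2 and control replicate 3. It averaged 104 ± 28.1 CPM for the fish oil tumours (SD, n = 4), 92.3 ± 11.7 CPM for the DHA oil tumours (SD, n = 3) and 115 ± 24.9 CPM for the controls (SD, n = 3). Relative to control the log2 fold change was -0.14 (-0.55 to 0.26) with fish oil and -0.31 (-0.75 to 0.12) with DHA oil, and between the oils, as fish oil over DHA oil, it was 0.17 (-0.24 to 0.58). The DHA oil value ranged from -0.45 to -0.13 leaving out 1 library. Only the order of the means, control, fish oil and DHA oil, can be given, since neighbours in it differed by less than 1 SD.

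FGFR1 (ENSG00000077782), the receptor of fibroblast growth factors, had 508, 469, 845 and 630.1 CPM in fish oil replicates 1 to 4, against 739, 509 and 676 CPM in DHA oil and 520.4, 605 and 603 CPM in control. Fish oil replicate 3 was the highest library and fish oil replicate 2 the lowest, with the controls between them. The means were 613 ± 169 CPM for the fish oil tumours (SD, n = 4), 641 ± 119 CPM for the DHA oil tumours (SD, n = 3) and 576 ± 48.1 CPM for the controls (SD, n = 3). Both oils together differed from control by a log2 fold change of 0.12 (-0.25 to 0.49), and fish oil differed from DHA oil by -0.07 (-0.47 to 0.34). Leaving out 1 library moved the first of these between 0.025 and 0.19.

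EPHA2 (ENSG00000142627), which binds ephrin-A ligands on neighbouring cells, was at 65.5, 46.1, 37.8 and 43.3 CPM in fish oil replicates 1 to 4, against 42.6, 50.3 and 43.5 CPM in DHA oil and 48.1, 39.9 and 49.9 CPM in control. Fish oil replicate 1 stood above all other libraries, which lay between 37.8 and 50.3 CPM. Group means were 48.2 ± 12.0 CPM for the fish oil tumours (SD, n = 4), 45.5 ± 4.25 CPM for the DHA oil tumours (SD, n = 3) and 45.9 ± 5.35 CPM for the controls (SD, n = 3). Both oils together differed from control by a log2 fold change of 0.02 (-0.30 to 0.35), and fish oil differed from DHA oil by 0.08 (-0.28 to 0.44).

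Relative to control, with either oil or both, the PDGF receptors had the smallest p-values among the receptors, and their fold changes had opposite signs. PDGFRA (ENSG00000134853), which binds PDGF A, B and C chains and marks glial progenitors and mesenchymal cells, stood at 19.2, 17.96, 18.8 and 23.98 CPM in fish oil replicates 1 to 4, against 20.5, 23.0 and 16.1 CPM in DHA oil and 13.2, 18.8 and 14.2 CPM in control. Control replicates 1 and 3 were the lowest libraries, while control replicate 2 lay among the oil libraries. Relative to control the log2 fold change was 0.38 (-0.01 to 0.77) with fish oil and 0.37 (-0.04 to 0.78) with DHA oil, and between the oils, as fish oil over DHA oil, it was 0.01 (-0.37 to 0.39). For both oils against control it was 0.37 (0.02 to 0.73), with an unadjusted p of 0.0406 that did not pass adjustment over all genes (edgeR, adjusted p = 1.00).

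PDGFRB (ENSG00000113721), which binds PDGF B and D chains and is the receptor that pericytes and fibroblasts of tumour stroma carry, stood at 42.6, 29.7, 34.7 and 25.4 CPM in fish oil replicates 1 to 4, against 36.8, 29.7 and 29.8 CPM in DHA oil and 33.0, 46.8 and 46.5 CPM in control. Control replicates 2 and 3 were the highest libraries, while control replicate 1 lay among the oil libraries. Relative to control the log2 fold change was -0.35 (-0.73 to 0.03) with fish oil and -0.39 (-0.80 to 0.02) with DHA oil, and between the oils, as fish oil over DHA oil, it was 0.04 (-0.35 to 0.43). For both oils against control it was -0.37 (-0.71 to -0.03), with an unadjusted p of 0.0368 and an adjusted p of 1.00 by edgeR. Leaving out control replicate 1 gave unadjusted p-values of 0.189 for PDGFRA and 0.00936 for PDGFRB, and leaving out control replicate 2 gave 0.0117 for PDGFRA and 0.158 for PDGFRB. Without DHA oil replicate 2, 0 of 9 receptors had an unadjusted p under 0.05 by edgeR for both oils against control (385 of 16197 genes tested). The count was also 0 of 9 without control replicate 3 (277 of 16395 genes) and with a block on replicate number (491 of 16013 genes). Without fish oil replicates 2 and 4 the log2 fold change of both oils against control was 0.34 for PDGFRA (unadjusted p = 0.0567) and -0.26 for PDGFRB (unadjusted p = 0.0825).

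In means, PDGFRA was at 19.98 ± 2.72 CPM for the fish oil tumours (SD, n = 4), 19.8 ± 3.47 CPM for the DHA oil tumours (SD, n = 3) and 15.4 ± 3.01 CPM for the controls (SD, n = 3), and PDGFRB was at 33.1 ± 7.36 CPM for the fish oil tumours (SD, n = 4), 32.1 ± 4.05 CPM for the DHA oil tumours (SD, n = 3) and 42.1 ± 7.87 CPM for the controls (SD, n = 3). The count of PDGFRA reads per PDGFRB read needs no scaling between libraries, though it still depends on the lengths of both transcripts. It was 0.451, 0.604, 0.541 and 0.942 in fish oil replicates 1 to 4, 0.556, 0.773 and 0.541 in DHA oil and 0.399, 0.402 and 0.307 in control. All 7 oil libraries lay above all 3 controls. This ratio was chosen after the values of both genes were seen and was not tested. Among the 36 ratios that the 9 receptors allow, 2 separated the oils from control in this way (5.56%). The other was PDGFRA to ERBB2, at 0.203 to 0.378 in the oil libraries and 0.155 to 0.191 in control. Both ratios hold PDGFRA, so they are not independent, and the share over ratios of all genes was not computed. Whether mouse stromal reads, which may align to these conserved genes, move with the ratio of PDGFRA to PDGFRB was not tested.

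**Figure D3:**
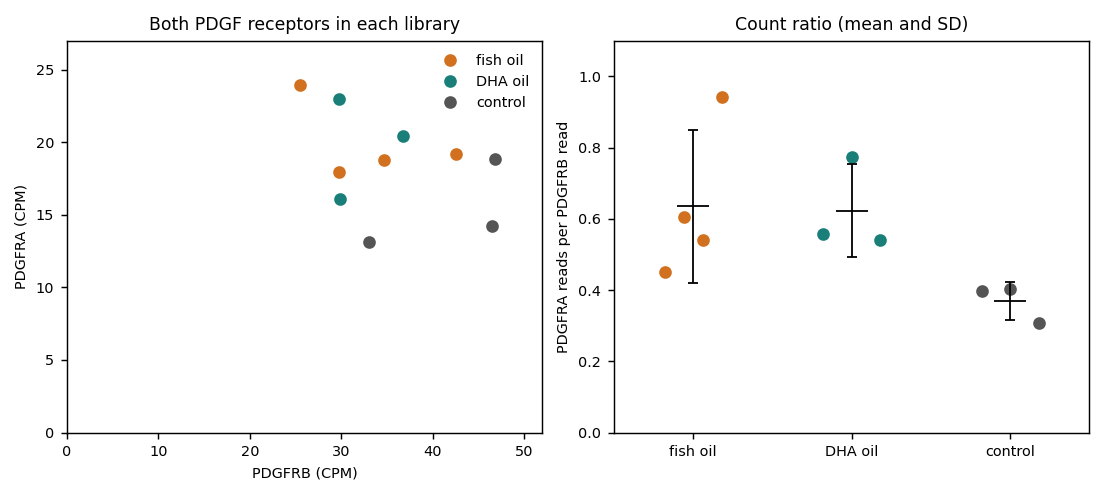
Left, PDGFRA against PDGFRB level in each library, both in CPM. Right, PDGFRA reads per PDGFRB read in fish oil, DHA oil and control libraries (points) with mean and SD, where the 7 oil libraries lie between 0.451 and 0.942 and the 3 controls between 0.307 and 0.402. The ratio was chosen after the values were seen and was not tested, and the share over ratios of all genes was not computed.

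KIT (ENSG00000157404), the receptor of stem cell factor, which mast cells and melanocytes carry, was close to the limit of detection. It had 1, 4, 3 and 10 reads in fish oil replicates 1 to 4, 6, 6 and 7 reads in DHA oil and 4, 4 and 5 reads in control. Summed over libraries this came to 0.554 CPM in fish oil (95% Poisson interval 0.328 to 0.876), 0.674 CPM in DHA oil (0.406 to 1.053) and 0.535 CPM in control (0.285 to 0.914), where the intervals cover counting error only. All intervals overlapped, and no difference between diets was detectable at this depth. In a fit with no filter on low counts KIT had a log2 fold change of 0.01 with fish oil and 0.32 with DHA oil relative to control, and -0.31 for fish oil relative to DHA oil, with unadjusted p-values of 0.989, 0.630 and 0.612.

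With all libraries, tumours of 1 diet differed more in 8 of the 9 receptors than in the median gene, though by little in ERBB2 and EPHA2. The SD of log2 CPM within diets was 0.60 for MET, larger than in 95.1% of all genes tested. It was 0.34 for IGF1R, 0.32 for EGFR, 0.31 for AXL, 0.30 for FGFR1 and 0.27 for PDGFRB, and lowest for EPHA2 (0.25), ERBB2 (0.24) and PDGFRA (0.23). The median was 0.24 over all 16013 genes and 0.19 over the 8934 genes whose mean counts lay in the range of the receptors. In the narrower set 9 of 9 receptors were above the median and 7 of 9 above the upper quartile of 0.25. Without fish oil replicates 2 and 4 the SD of MET was 0.44, beside a median of 0.19 over all genes tested. For EPHA2 it was 0.15 without fish oil replicate 1, beside a median of 0.22. Without fish oil replicate 3, ERBB2 (0.2376), EPHA2 (0.223) and FGFR1 (0.218) lay below the median of 0.2379, and PDGFRA (0.248) lay above it. Without fish oil replicate 2, AXL (0.2373) lay below the median of 0.2378, and PDGFRA (0.242) lay above it. ERBB2 lay below the median without control replicate 1 (0.209, beside 0.243) or control replicate 2 (0.2382, beside 0.2415). It also did so with no TMM factor (0.2385, beside 0.2389). IGF1R was at 0.23 without fish oil replicate 4, beside a median of 0.21. As a share of the mean, MET varied by 41.6% over the 10 libraries (coefficient of variation), while counting error would give 5.93%.

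**Figure D4:**
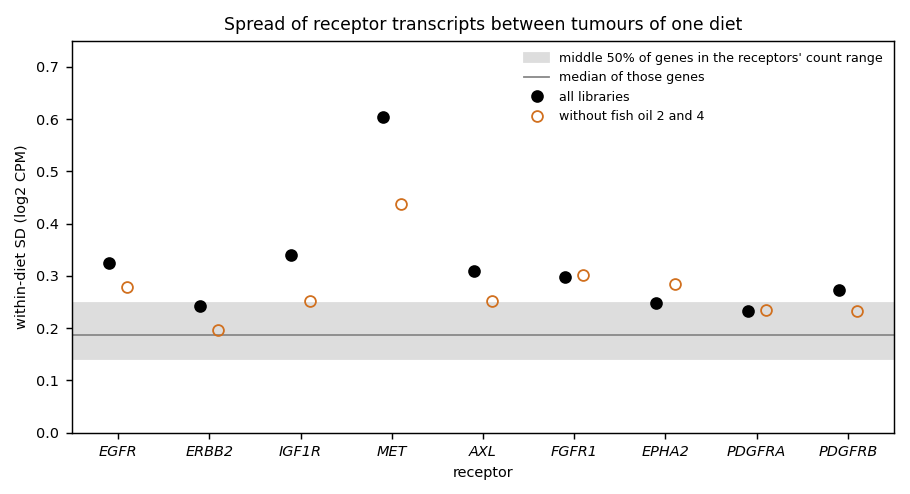
SD of log2 CPM between libraries of 1 diet (y axis) for the 9 receptors tested, in all libraries (filled) and without fish oil replicates 2 and 4 (open). The line and grey band are the median and interquartile range of the genes in the receptors' range of mean counts, from all libraries. They were not redrawn for the open points, where the median over all genes tested was 0.19, against 0.24 with all libraries. MET stands highest at 0.60 with all libraries and 0.44 without those replicates.

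Of the pairs of receptors, 1 passed adjustment, by rho alone, and that call was lost when any of 6 single libraries was left out. Over the 10 libraries, 36 pairs were compared by Pearson's r and Spearman's rho of log2 CPM, with two-sided permutation tests. Adjusted over the 36 pairs, 0 passed 0.05 by r and 1, ERBB2 with PDGFRB, passed by rho, and 7 pairs had an unadjusted p under 0.05 by r. The size of r was at least 0.63, which for normal values has a two-sided p of 0.05 at this number of libraries, in 7 of 36 pairs (19.4%), beside 12.2% of all pairs of genes tested. All pairs share the library and its scaling, and receptor pairs share members.

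ERBB2 and PDGFRB had an r of 0.85 (permutation p = 0.00223, adjusted 0.0661) and a rho of 0.90 (permutation p = 0.00080, adjusted 0.0288). Both were lowest in fish oil replicate 4, and without the libraries farthest from the median of ERBB2, fish oil replicates 2 and 4, r was 0.76 and rho 0.86 (exact permutation p = 0.0107), with an adjusted p by rho of 0.193, so that the call was lost. It was also lost without DHA oil replicate 1 (adjusted p = 0.0730, exact permutation test), fish oil replicate 2 (0.0729), fish oil replicate 3 (0.0730), and fish oil replicate 4, control replicate 2 or control replicate 3 (0.162 each), with rho between 0.87 and 0.93 leaving out any 1 library. The number of ERBB2 reads per PDGFRB read stayed between 1.98 and 2.66 in all 10 libraries. EGFR and IGF1R had an r of 0.84 (permutation p = 0.00367, adjusted 0.0661) and a rho of 0.84 (permutation p = 0.00387, adjusted 0.0697). Without the libraries farthest from the median of EGFR, fish oil replicate 2 and control replicate 3, r was 0.97, and without fish oil replicates 2 and 4 it was 0.84. EGFR reads per IGF1R read stayed between 3.23 and 4.45, a 1.38-fold range, while EGFR itself spanned a 2.04-fold and IGF1R a 2.10-fold range of CPM. When deviations from the diet means were used, r was 0.94 for ERBB2 with PDGFRB (adjusted permutation p = 0.00864) and 0.90 for EGFR with IGF1R (adjusted permutation p = 0.0203). The permutation p in that setting does not allow for the centring on diet means, so these pairs are not counted as passing.

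EGFR also had positive r with AXL (0.77, permutation p = 0.0102, adjusted 0.123) and with MET (0.73, permutation p = 0.0159, adjusted 0.143). Their rho values were 0.47 (permutation p = 0.179) and 0.55 (permutation p = 0.106), both with an adjusted p of 0.496. These values of r leaned on fish oil replicate 2 and control replicate 3, the libraries farthest from the median of EGFR. Without that pair, which narrows the range of EGFR, r was 0.18 for AXL and 0.21 for MET. With deviations from the diet means, r was 0.76 for AXL and 0.73 for MET. Without the farthest libraries in that setting, fish oil replicate 4 and control replicate 3, it was 0.64 and 0.61. Without fish oil replicates 2 and 4, r of EGFR was 0.65 with AXL and 0.51 with MET, and r of MET with AXL was 0.37. For MET with AXL r was 0.63 with all libraries (permutation p = 0.0490, adjusted 0.252), with a rho of 0.48 (permutation p = 0.168). It was -0.12 without fish oil replicate 2 and control replicate 3. FGFR1 had a negative r with EPHA2 (-0.67, permutation p = 0.0291, adjusted 0.209), with a rho of -0.78 (permutation p = 0.0109). Its r with MET was -0.65 (permutation p = 0.0427, adjusted 0.252), with a rho of -0.67 (permutation p = 0.0394). Without fish oil replicates 2 and 3, the libraries farthest from the median of FGFR1, r with EPHA2 was -0.69. Without fish oil replicate 2 and control replicate 3, the farthest from the median of MET, r with MET was -0.69. Without fish oil replicates 2 and 4, r was -0.77 with EPHA2 and -0.60 with MET. Leaving out 1 library, r ran from -0.76 to -0.56 with EPHA2 and from -0.77 to -0.54 with MET. The receptor most like PDGFRA was FGFR1, with an r of 0.11 (permutation p = 0.763), the highest r of PDGFRA with any other receptor.

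**Figure D5:**
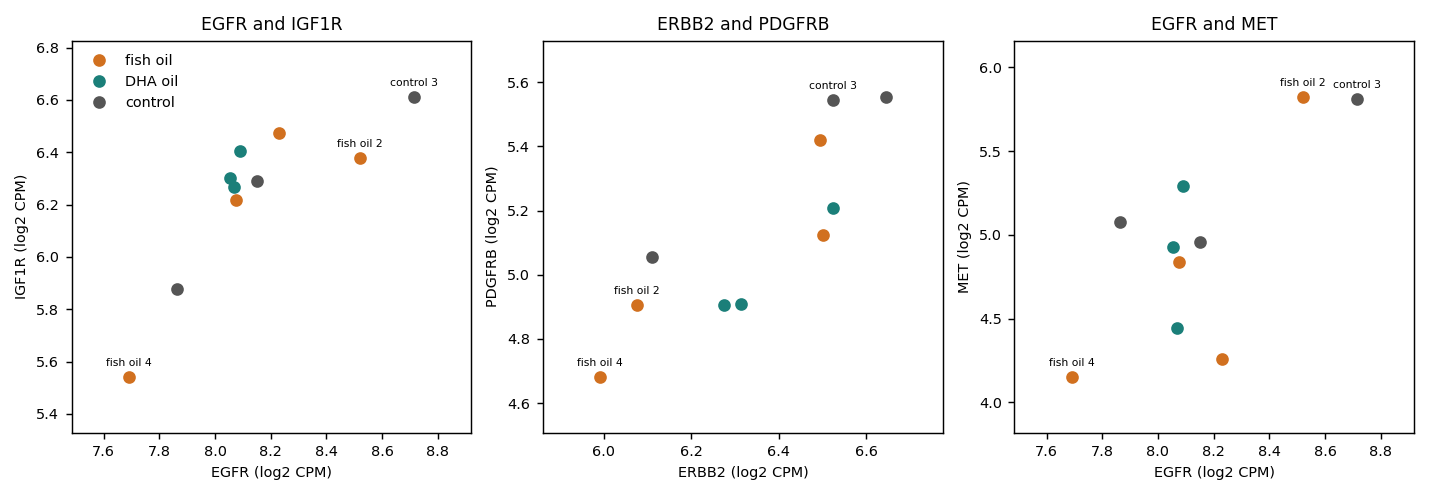
Log2 CPM of EGFR and IGF1R (left), ERBB2 and PDGFRB (middle) and EGFR and MET (right) in the 10 libraries, coloured by diet. The left and middle panels rise along a line (r = 0.84 and 0.85), while in the right panel fish oil replicate 2 and control replicate 3 lie apart at the upper right.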

How the data were processed

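The authors deposited whole-number counts for each human Ensembl gene, with no sign in the values of normalisation. The submitters' processing notes name STAR, HTSeq 0.9.0 and the build GRCh38. Libraries were single-end reads of 75 bases from a stranded poly(A) kit, per the labels' protocols. The annotation release, strand setting and treatment of reads shared by several genes are not given in these sources, so counts of overlapping or antisense genes are uncertain.

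Library totals ranged from 6187116 to 10035702. Low genes were removed with filterByExpr (minimum count 10), and the test was edgeR's quasi-likelihood F test (edgeR 4.0.16, R 4.3.3) after TMM scaling. The 10 libraries entered 1 common model, with Benjamini-Hochberg adjustment over the 16013 genes tested and a threshold of 0.05. Intervals are 95%, from an SE equal to the log2 fold change divided by the square root of F. Log2 CPM used a prior count of 2. Correlations used 100000 permutations, or all permutations for fewer than 10 libraries. The scripts were tested on simulated data. Alternatives used RLE or upper quartile scaling, other filters, DESeq2 1.42.0, limma-voom (limma 3.58.1), only the groups compared, a replicate block, and libraries left out.

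The members and lists were chosen with earlier results of these data known. All 10 receptors are named by rule, with names from the list that defines them. Of the 33538 identifiers in the count table, 0 were found in the mouse reference tables at hand, so the 193 symbols of the 11 lists of other pathway genes and cell type markers could not be linked to the counts. Ligands, downstream genes and markers of DAOY or host cells are therefore not analysed here, and the most similar gene was sought among the receptors only. Deviations of same-numbered libraries correlated at -0.17 to 0.18. No pairing by replicate number was seen, though groups this small cannot exclude one.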

Additional observations from a re-analysis of the deposited data

How the results depend on the processing

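No receptor was called under any alternative run, in any comparison: the counts of receptors called were 0 throughout, over 675 fold changes recomputed, with a smallest adjusted p of 0.509. Of these, 618 kept their sign and 57 did not. In fish oil against DHA oil the log2 fold change changed sign for MET (-0.0047 with no filter, -0.15 with limma-voom, -0.37 without fish oil replicates 2 and 4), PDGFRA (-0.047 with limma-voom, -0.080 with the replicate block, -0.065 without those replicates), IGF1R (0.030 with the replicate block and 0.028 without those replicates), FGFR1 (0.025 with limma-voom, 0.078 without those replicates), EPHA2 (-0.015 with limma-voom) and ERBB2 (0.12 without those replicates). With both oils against control it did so for IGF1R (0.069 with the replicate block, 0.050 without those replicates) and EPHA2 (-0.040 with limma-voom). For fish oil against control the sign changed for EGFR (0.019) and IGF1R (0.084) with the replicate block, EPHA2 (-0.047 with limma-voom), and ERBB2 (0.056) and IGF1R (0.064) without those replicates, and for DHA oil against control for IGF1R (-0.00028 with limma-voom). Leaving out 1 library at a time, values that crossed 0 ranged, for fish oil against DHA oil, from -0.056 to 0.22 for EGFR, -0.50 to 0.23 for MET, -0.12 to 0.13 for PDGFRA, -0.10 to 0.15 for PDGFRB, -0.24 to 0.036 for IGF1R, -0.26 to 0.050 for FGFR1, -0.028 to 0.26 for AXL and -0.099 to 0.18 for EPHA2. For both oils against control they ranged from -0.35 to 0.10 for EGFR, -0.20 to 0.16 for IGF1R and -0.066 to 0.086 for EPHA2, for fish oil against control from -0.30 to 0.14 for EGFR, -0.26 to 0.093 for IGF1R, -0.10 to 0.20 for FGFR1, -0.34 to 0.033 for AXL and -0.11 to 0.16 for EPHA2, and for DHA oil against control from -0.39 to 0.055 for EGFR, -0.22 to 0.046 for ERBB2, -0.13 to 0.23 for IGF1R and -0.10 to 0.048 for EPHA2. Values that moved over 1.5 times without crossing 0 were, besides those of MET, those of ERBB2 (fish oil against control -0.31 to -0.048, fish oil against DHA oil -0.17 to -0.0071, both oils against control -0.26 to -0.0014), FGFR1 (DHA oil against control 0.041 to 0.30, both oils against control 0.025 to 0.19) and AXL (DHA oil against control -0.45 to -0.13, both oils against control -0.36 to -0.050). At an unadjusted p under 0.05, receptors numbered 0 to 2 of 9 over the alternatives for fish oil against control. That count was above 0 in 6 of 19, beside 368 to 1483 of all genes tested. For DHA oil against control receptors numbered 0 to 3 (11 of 19, beside 283 to 1002 genes). They numbered 0 to 3 for both oils against control (15 of 18, beside 277 to 853 genes). For any diet difference they numbered 0 to 1 (5 of 18, beside 415 to 1309 genes). For fish oil against DHA oil they numbered 0 (0 of 19, beside 538 to 1758 genes). The alternatives tested 15511 to 26038 genes. The unadjusted p of both oils against control was under 0.05 in 11 of 18 alternatives for PDGFRA (0.0117 to 0.189) and in 11 of 18 for PDGFRB (0.00883 to 0.158), with a sign that held in all 18 for both, and adjusted p-values were 0.982 to 1.00.

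Over all genes, counts of calls depended on the processing. For fish oil against control the count of 1 became 56 with no filter, 20 with DESeq2, 0 with limma-voom, 7 in a fit of only these groups, 0 with the replicate block and 0 without fish oil replicates 2 and 4 (0 to 22 leaving out 1 library). For DHA oil against control the count of 0 (438 genes at an unadjusted p under 0.05) became 57 with no filter, 11 with DESeq2, 3 with limma-voom and 1 with the replicate block (0 to 5). For fish oil against DHA oil the count of 0 (775 at an unadjusted p under 0.05) became 14 with no filter and 1 with DESeq2 (0 to 1). For both oils against control the count of 21 became 76 with no filter, 1 with limma-voom, 12 with the replicate block and 0 without fish oil replicates 2 and 4 (3 to 35). For any diet difference the count of 5 became 88 with no filter, 29 with DESeq2, 0 with limma-voom and 0 without those replicates (0 to 20). The cause was not tested. Pairs of receptors past the threshold by r numbered 2 with deviations from the diet means, whose permutation p does not allow for the centring, and 0 to 1 leaving out 1 library, where ERBB2 with PDGFRB passed without control replicate 1. By rho the count of 1 became 2 with deviations from the diet means and 0 without fish oil replicates 2 and 4, where the rho of ERBB2 with PDGFRB was 0.86 and its adjusted permutation p 0.193 (0 to 2 pairs leaving out 1 library, with rho 0.87 to 0.93). All 140 alternative mean levels lay within 1 SD of their group. Leaving libraries out of groups this small cannot move a mean by 1 SD, so those levels could not have failed. Only the levels without the TMM factor could have. Depth limits what can be said of KIT, which had 1 to 10 reads per library. The block on replicate number rests on a number for which no pairing of the libraries was seen.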
